A study of Drosophila melanogaster with 12 samples.

Results

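The expression of 10 genes of the circadian clock and of light-driven DNA repair, *per*, *tim*, *vri*, *Pdp1*, *cwo*, *Clk*, *cyc*, *cry*, *phr* and *phr6-4*, was examined in guts and carcasses of *nub1* mutant and wild type (wt) *Drosophila melanogaster* females. They were chosen by name, and 12 probe sets (groups of short probes on the array that report 1 transcript) of 18769 were assigned to them. 8 of the genes were identified through the platform annotation, which named 11982 genes in all. *phr* and *phr6-4* were identified only through the supplementary tables of the study, which list genes that differed by at least 2-fold on these same arrays. *phr* is listed there for carcass and gut and *phr6-4* for carcass, so their differences in those tissues are given as a description and do not count as independent evidence.

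The arrays, Affymetrix Drosophila Genome 2.0, fall into 4 groups of 3: *nub1* gut, wt gut, *nub1* carcass and wt carcass. For each tissue RNA came from 3 pools of 20 females per genotype, aged 7 to 12 days and kept untreated at 25°C in cycles of 12 h light and 12 h dark, and carcass is the fly without head and gut. Whether guts and carcasses came from the same pools is not given in the sources used here. The *nub1* flies carry a retrotransposon insertion in the POU transcription factor gene *nubbin* and lack the Nub-PD protein, while the Nub-PB isoform is still made. Their second chromosome also carries the alleles *b1* and *pr1*, so effects of *nub1* and of the rest of that stock cannot be told apart. The wt flies are labelled OregonR and w1118 on the samples and OregonR alone in the series description. The time of day at which flies were dissected is not given in the sources used here, and a difference in clock phase between collections was not tested.

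In the fly clock, the transcription factors Clock (Clk) and Cycle (cyc) bind together to E-boxes and switch on *per*, *tim*, *vri*, *Pdp1* and *cwo*. Period and Timeless proteins return to the nucleus and block Clock and Cycle, vrille represses *Clk* and Pdp1 activates it, and clockwork orange represses at E-boxes. Transcripts of *Clk* and *cry* accumulate in antiphase to those of *per* and *tim*, while *cyc* does not cycle. Cryptochrome (cry) is a blue-light receptor that leads to the breakdown of Timeless. It belongs to the same protein family as the photolyases, enzymes that use light to reverse ultraviolet damage in DNA. The *phr* product acts on cyclobutane pyrimidine dimers and that of *phr6-4* on (6-4) photoproducts. Most fly tissues, the gut among them, hold clocks of their own.

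Values are MAS5 signals, a linear measure of probe set brightness scaled to the same trimmed mean of 100 on every array. Tests were run with limma on log2(signal + 10), and a gene was called changed where its p, adjusted by Benjamini-Hochberg over all probe sets tested, was under 0.05 and its fold at least 2. Log2 fold changes and the 2-fold criterion are on this scale, which understates differences of dim genes: a signal of 20 against 10 is there well under 2-fold. Signals of different genes are not set against each other, since probe sets differ in their response. The tissue labels fit the marker genes, with the mean log2 level of 6 digestive genes at 11.09 to 11.77 in *nub1* gut, 11.50 to 11.87 in wt gut, 7.04 to 7.76 in *nub1* carcass and 7.49 to 7.66 in wt carcass. Ovary and eggshell transcripts, abundant in every carcass, were also present on some gut arrays: the mean over 10 such genes was 9.97 on *nub1* gut replicate 2 and 9.28 and 10.58 on wt gut replicates 2 and 3, against 4.75, 6.56 and 4.83 on the other gut arrays. The mean over 4 ejaculatory duct genes was 7.32 and 8.99 on *nub1* gut replicates 1 and 3, against 5.97 on *nub1* gut replicate 2 and 5.58 to 5.92 in wt gut. The eye list, of which 4 of 10 genes were measured, was dim, at 3.98 to 4.63 in *nub1* gut, 4.33 to 4.80 in wt gut, 3.88 to 4.02 in *nub1* carcass and 3.74 to 3.99 in wt carcass. Some other lists differed between the genotypes without overlap of arrays. In gut, 5 nervous system genes averaged 4.10 to 4.37 in *nub1* and 4.79 to 5.11 in wt flies, 2 Malpighian tubule genes 6.95 to 7.23 in *nub1* and 7.94 to 8.22 in wt flies, and 8 fat body genes 7.93 to 8.53 in *nub1* and 8.57 to 8.68 in wt flies. In carcass the fat body genes averaged 9.31 to 9.62 in *nub1* and 8.93 to 9.28 in wt flies, while 7 flight muscle genes, at up to 8.40 in *nub1* and 8.02 in wt flies, overlapped. RNA from fewer cells of a type and less RNA per cell cannot be told apart in such samples. The probe set of *nub*, not tied to one of its transcripts, had a mean signal of 457 in *nub1* gut and 267 in wt gut, and 5.18 in *nub1* carcass and 4.76 in wt carcass, so it does not check the lack of Nub-PD.

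**Figure D1:**
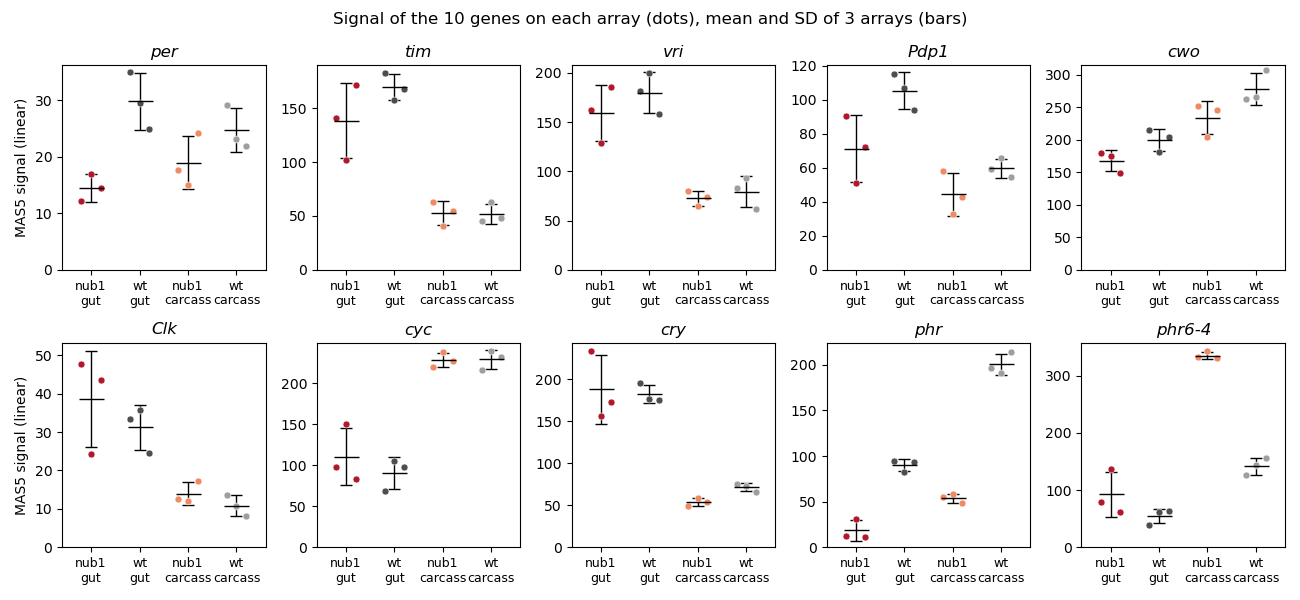
MAS5 signal (linear axis from 0) of each of the 10 genes on each of the 12 arrays (dots), by group, with the mean and SD of 3 arrays (bars). In *phr* the *nub1* arrays lie below the wt arrays in both tissues, in *phr6-4* the 3 *nub1* carcass arrays lie above all wt carcass arrays, and *tim*, *vri*, *Clk* and *cry* are higher in gut than in carcass in both genotypes.

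None of the 8 clock genes was called changed in *nub1* carcass with limma, where 1, *cry*, had an unadjusted p under 0.05, and the methods' test, rerun here, called 0 of them. Their log2 fold changes ran from −0.38 to 0.21, with a median of −0.17 (−0.02 over all probe sets tested), and the 95% intervals of all 8 lay between −0.80 and 0.65 on the log2(signal + 10) scale. For the dim *Clk* this interval still holds a doubling of the signal itself. Over all 8855 probe sets tested in carcass, 2.77% were called higher and 1.94% lower. In *nub1* gut none of the 8 was called either, with 2 at an unadjusted p under 0.05 and 1 called by the methods' test without adjustment, against a background of 3.15% called higher and 6.13% lower over 9782 probe sets. There the log2 fold changes ran from −0.70 to 0.25, reading *tim* and *cwo* by their brighter probe set, and the lowest bounds of the 95% intervals were −1.04 for *per* and −0.96 for *Pdp1*, each of which holds a halving of the signal itself. *per* and *Pdp1* had an adjusted p under 0.05 in gut, as 35.1% of all probe sets did, and none of the 8 did in carcass, where 15.6% of all probe sets did.

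Among the genes driven by Clock and Cycle, *per*, which encodes the Period repressor, had signals of 12.1, 17.0 and 14.4 in *nub1* gut and of 35.0, 29.5 and 24.9 in wt gut. All 3 *nub1* arrays were below all wt arrays. Arrays of both genotypes did not overlap for 40.8% of the probe sets tested in gut. The log2 fold change was −0.70 (SE 0.15, adjusted p = 0.0044), under the 2-fold minimum, although the ratio of the mean signals, 14.5 ± 2.46 in *nub1* gut and 29.8 ± 5.03 in wt gut (SD, n = 3 each), was 0.486. In carcass, *per* had signals of 17.6, 15.0 and 24.2 in *nub1* flies and of 29.1, 23.1 and 21.9 in wt flies. These groups overlapped, and the log2 difference was −0.27 (SE 0.15, adjusted p = 0.31). All of these signals are close to the dim limit of 10.

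*tim*, which encodes the light-sensitive partner of Period, was read by 2 probe sets. The brighter one had signals of 141, 102 and 172 in *nub1* gut and of 183, 158 and 168 in wt gut, which overlap (log2 fold change −0.30, SE 0.19, adjusted p = 0.23, and −0.12 without *nub1* gut replicate 2). In carcass it had 62.9, 40.4 and 54.3 in *nub1* flies and 45.4, 62.8 and 47.9 in wt flies, with a difference of 0.01 on the log2 scale (SE 0.18, adjusted p = 0.99). The dimmer one had 2.96, 7.25 and 10.3 in *nub1* gut against 22.8, 17.9 and 25.6 in wt gut, with no overlap and a log2 difference of −0.95 (SE 0.20, adjusted p = 0.0032), under the 2-fold minimum. The probe sets thus differed in size of difference, and the dim one rests on signals that are mostly under 10 in *nub1* gut. It was tested there only because the wt gut arrays reached 10. In carcass the dim probe set was not tested, since neither genotype reached 10 on all arrays.

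*vri* and *Pdp1* encode the repressor and the activator of *Clk*. *vri* had signals of 162, 129 and 186 in *nub1* gut and of 182, 200 and 158 in wt gut (log2 fold change −0.18, SE 0.16, adjusted p = 0.42). In carcass it had 79.6, 64.4 and 73.7 in *nub1* flies and 83.4, 92.9 and 61.9 in wt flies (−0.10, SE 0.16, adjusted p = 0.78). The genotypes overlapped in both tissues. *Pdp1* had 90.5, 51.0 and 72.1 in *nub1* gut and 115, 107 and 94.2 in wt gut, all *nub1* arrays being lower. Its log2 fold change there was −0.53 (SE 0.19, adjusted p = 0.0495), and without *nub1* gut replicate 2, the lowest array, it was −0.34 (adjusted p = 0.14). In carcass *Pdp1* had 57.9, 32.9 and 42.9 in *nub1* flies and 59.1, 65.5 and 54.5 in wt flies, which overlapped (−0.38, SE 0.19, adjusted p = 0.25).

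*cwo*, the E-box repressor, was also read by 2 probe sets. The brighter one had signals of 179, 175 and 149 in *nub1* gut and of 214, 181 and 204 in wt gut, and of 251, 204 and 245 in *nub1* carcass and of 262, 265 and 306 in wt carcass. The *nub1* arrays were lower in both tissues without overlap, by small amounts that did not pass the test (log2 fold change −0.24, SE 0.11, in gut and in carcass, adjusted p = 0.12 in gut and 0.20 in carcass). Groups did not overlap for 45.0% of the probe sets tested in carcass. The dimmer probe set gave −0.47 in gut (SE 0.18, adjusted p = 0.070) and −0.33 in carcass (SE 0.18, adjusted p = 0.30).

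Of the activators, *Clk* had signals of 47.8, 24.3 and 43.5 in *nub1* gut and of 33.5, 35.7 and 24.6 in wt gut, with overlapping arrays (log2 fold change 0.21, SE 0.20, adjusted p = 0.45, and 0.44 with an adjusted p of 0.053 without *nub1* gut replicate 2). In carcass it had 12.6, 12.0 and 17.4 in *nub1* flies and 13.7, 10.7 and 8.08 in wt flies, near the dim limit (0.21, SE 0.20, adjusted p = 0.61). *cyc*, its partner, had 97.8, 150 and 83.4 in *nub1* gut and 68.2, 105 and 97.4 in wt gut (0.25, SE 0.19, adjusted p = 0.32, and 0.02 without *nub1* gut replicate 2). In carcass *cyc* was nearly level, with 220, 238 and 227 in *nub1* flies and 216, 239 and 232 in wt flies. Its 95% interval in carcass ran from −0.41 to 0.40.

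*cry*, the light receptor, had signals of 49.1, 58.7 and 53.9 in *nub1* carcass and of 75.2, 72.6 and 66.0 in wt carcass. All *nub1* arrays were lower, and the log2 fold change of −0.35 (SE 0.13, adjusted p = 0.11) did not pass the test. In gut *cry* had 234, 156 and 173 in *nub1* flies and 195, 177 and 175 in wt flies, on both sides of each other (0.02, SE 0.13, adjusted p = 0.91). The difference between its gut and carcass effects was 0.37 (SE 0.19, adjusted p = 0.22).

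**Figure D2:**
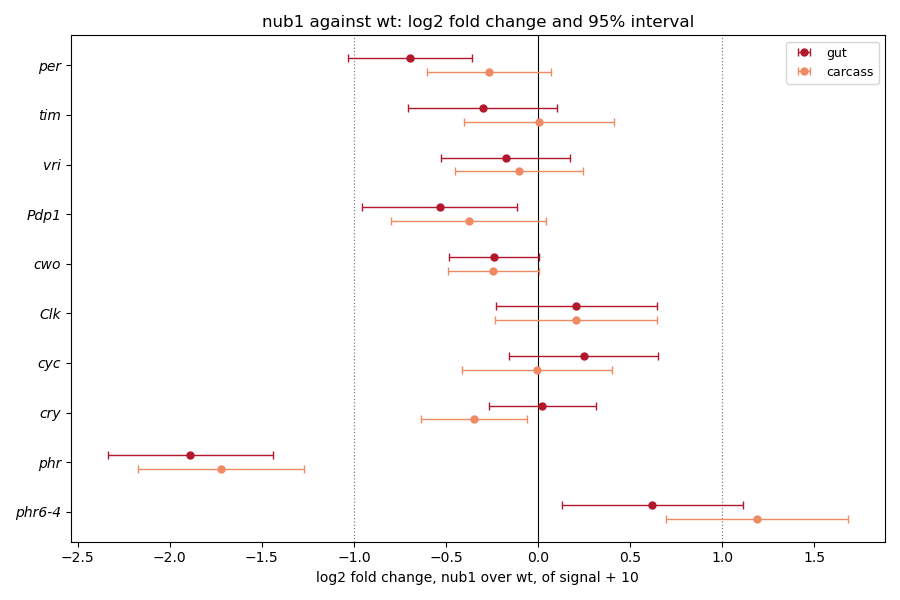
Log2 fold change of signal + 10, *nub1* over wt, in gut (red) and carcass (orange) for the 10 genes, with 95% intervals from limma; dotted lines mark a 2-fold difference. The points of the 8 clock genes lie between −0.70 and 0.25, whereas *phr* lies at −1.89 in gut and −1.72 in carcass and *phr6-4* at 0.62 in gut and 1.19 in carcass.

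The photolyase genes differed in opposite directions. *phr* had signals of 54.6, 58.5 and 48.7 in *nub1* carcass against 196, 191 and 214 in wt carcass, and of 12.8, 31.5 and 11.0 in *nub1* gut against 94.8, 82.7 and 93.9 in wt gut. Every *nub1* array was far below every wt array of the same tissue. The means were 53.9 ± 4.93 in *nub1* carcass and 200.5 ± 11.8 in wt carcass, and 18.4 ± 11.4 in *nub1* gut and 90.4 ± 6.74 in wt gut (SD, n = 3 each). The log2 fold change was −1.72 in carcass (SE 0.21, adjusted p = 0.00013) and −1.89 in gut (SE 0.21, adjusted p = 3.0e-05). *nub1* gut replicate 2 was the highest of its group, and without it the log2 fold change in gut was −2.20.

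*phr6-4* had signals of 332, 342 and 331 in *nub1* carcass against 126, 145 and 155 in wt carcass. The *nub1* arrays lay close together and all above the highest wt array, with means of 335 ± 6.24 in *nub1* and 142 ± 15.0 in wt carcass (SD, n = 3 each). The log2 fold change was 1.19 (SE 0.23, adjusted p = 0.0033). In gut, a tissue for which the study's tables do not list it, *phr6-4* had 79.8, 137 and 61.3 in *nub1* flies and 39.8, 61.0 and 63.2 in wt flies. These arrays overlapped, and the log2 difference was 0.62 (SE 0.23, adjusted p = 0.0501). The value rests in part on *nub1* gut replicate 2: without it the log2 fold change was 0.33 (adjusted p = 0.13).

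None of the 10 genes was called for a *nub1* effect that differed between gut and carcass, where 6.56% of all probe sets were. By limma 0 of the 10 had an unadjusted p under 0.05 there. The adjusted p ran from 0.22 for *per* to 0.997 for *Clk*. *phr6-4* was identified through its carcass difference alone. That choice favours a larger effect in carcass than in gut, so its values here do not count as independent evidence. For *phr6-4* the gut effect was smaller by 0.57 on the log2 scale, with a 95% interval of −1.27 to 0.13 (adjusted p = 0.27). Without *nub1* gut replicate 2, this difference was −0.86 for *phr6-4* (adjusted p = 0.016) and −0.48 for *phr* (adjusted p = 0.030), still under the 2-fold minimum. On that array, 9 of the 10 genes, *cwo* being the exception, lay nearer to the *nub1* carcass mean than on either of the other *nub1* gut arrays. The share over all probe sets was not taken and the wt gut arrays were not examined this way, so the count is not particular to these genes. Over all probe sets that passed the dim limit in any group, replicate 2 correlated with replicates 1 and 3 at 0.953 and 0.957. Replicates 1 and 3 correlated with each other at 0.9855. The part of carcass RNA in the values of that array was not tested. *nub1* gut replicates 1 and 3 and *nub1* carcass replicate 2 had the highest mean over the ejaculatory duct genes. On that carcass array it was 6.05, little above the 5.97 of *nub1* gut replicate 2. Without these 3 arrays, *phr6-4* in gut was at 1.20 and *phr* at −1.27. The difference between gut and carcass effects was then 0.03 for *phr6-4* and 0.50 for *phr*, so it depended on which *nub1* gut arrays were kept. Of the clock genes given above without *nub1* gut replicate 2, *Clk* was then at −0.26 in gut, *tim* at −0.68, *Pdp1* at −0.92 and *cyc* at 0.70. This fit leaves 1 *nub1* gut array, replicate 2, assumed to vary like the other groups.

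Both tissues were then compared within each genotype. By the same criterion, 6 of the 10 genes differed between gut and carcass in *nub1* flies and 6 in wt flies, and all 6 were shared, with the same direction: *tim*, *vri* and *cry* were higher in gut, and *cyc*, *phr* and *phr6-4* lower. Differences between these tissues are common on the arrays, with 15.6% of probe sets called higher and 22.7% lower in *nub1* flies and 17.8% higher and 21.9% lower in wt flies. Over all probe sets tested, the median log2 fold change of gut over carcass was −0.46 in *nub1* and −0.32 in wt flies. Malpighian tubule markers averaged 6.95 to 7.23 in gut and 6.405 to 6.78 in carcass of *nub1* flies, and 7.94 to 8.22 and 6.33 to 6.45 in wt flies. Nervous system markers were higher in gut in wt flies (4.785 to 5.11 against 4.42 to 4.47) but not in *nub1* flies (4.10 to 4.37 against 4.42 to 4.46). The part of cell types in the differences between tissues was not tested. *tim* was higher in gut by a log2 fold change of 1.23 in *nub1* (SE 0.19) and 1.54 in wt flies (SE 0.19). By its dimmer probe set the value was 0.86 in wt flies (adjusted p = 0.0017), under the limit, and was not tested in *nub1* flies. *cry* was higher by 1.61 in *nub1* (SE 0.13) and 1.24 in wt flies (SE 0.13), and *vri* by 1.02 in *nub1* and 1.10 in wt flies (SE 0.16 each). *cyc* was lower in gut, at −1.02 in *nub1* and −1.27 in wt flies (SE 0.19 each). The calls nearest to 2-fold turned on single arrays. *vri* was at 0.91 without *nub1* gut replicate 3, at 0.95 without *nub1* carcass replicate 2 and, in wt flies, at 0.95 without wt carcass replicate 3. *cyc* in *nub1* flies was at −0.96 without gut replicate 1, −0.86 without gut replicate 3 and −0.99 without carcass replicate 2. With quantile normalization *cyc* was at −0.67 in *nub1* and −0.94 in wt flies, and *phr* at −0.72 in wt flies.

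*Clk*, the partner of *cyc*, ran the other way and was just under the limit, at 0.99 in *nub1* flies (adjusted p = 0.00069) and 0.98 in wt flies (adjusted p = 0.00070). It passed the limit without *nub1* gut replicate 2 (1.22) or *nub1* carcass replicate 3 (1.08) in *nub1* flies, and without wt gut replicate 3 (1.11) or wt carcass replicate 1 (1.08) in wt flies. *Pdp1* was at 0.57 in *nub1* flies (adjusted p = 0.017) and 0.73 in wt flies (adjusted p = 0.0042), under 2-fold in both. *per* did not pass in either genotype, at −0.23 in *nub1* and 0.20 in wt flies. The probe sets of *cwo* went in opposite directions. The brighter one was lower in gut, at −0.45 in *nub1* and −0.46 in wt flies, and the dimmer one higher, at 0.88 in *nub1* and 1.02 in wt flies, so that no direction can be given for *cwo* between these tissues.

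The photolyase genes were both lower in gut. *phr* was at −1.24 in *nub1* and −1.07 in wt flies (SE 0.21 each), and *phr6-4* at −1.82 in *nub1* and −1.25 in wt flies (SE 0.23 each). The study did not list these genes for a difference between tissues. It listed them for differences between genotypes, and the signals behind that choice enter these comparisons too. Their values between tissues are therefore given as a description and do not count as independent evidence. In wt flies, mean signals were 90.4 in gut and 200.5 in carcass for *phr*, and 54.7 in gut and 142 in carcass for *phr6-4*.

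**Figure D3:**
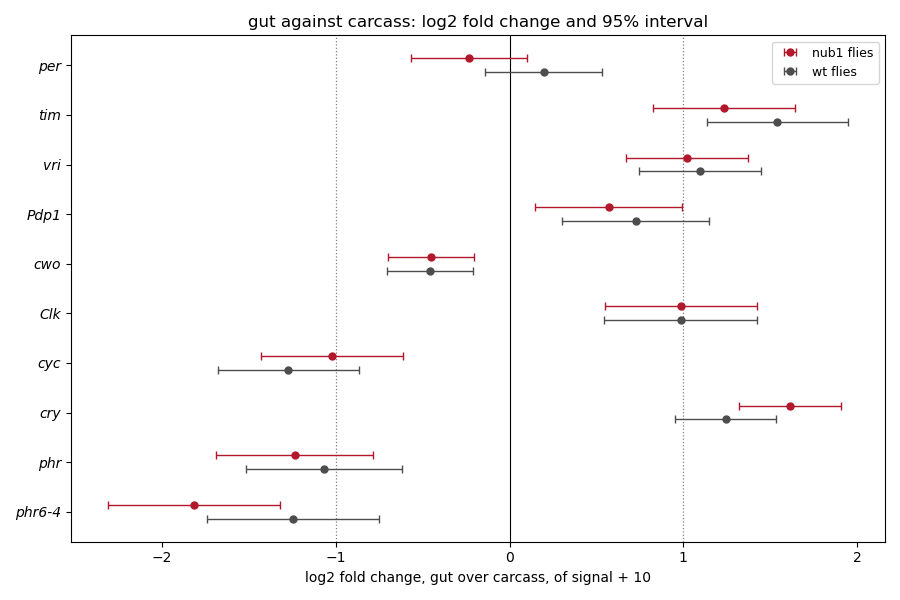
Log2 fold change of signal + 10, gut over carcass, in *nub1* flies (red) and wt flies (grey) for the 10 genes, with 95% intervals from limma; dotted lines mark a 2-fold difference. *tim*, *vri* and *cry* lie above 1 in both genotypes and *cyc*, *phr* and *phr6-4* below −1, and the brighter *cwo* probe set is plotted.

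Since genes driven by Clock and Cycle and the pair *Clk* and *cry* are known to peak at opposite times of day, the difference between their mean log2 levels was taken for each array, as a description. It was −0.22, 0.19 and 0.05 in *nub1* gut against 0.53, 0.44 and 0.57 in wt gut. All *nub1* gut arrays were below all wt gut arrays. In carcass it was 1.12, 0.66 and 0.86 in *nub1* flies and 0.88, 1.08 and 1.05 in wt flies, which overlapped. The nervous system, Malpighian tubule and fat body markers also separated the genotypes in gut, as given above, and their part in this difference and in that of *per* was not tested. Only differences between arrays of 1 tissue can be read from this measure, since the zero depends on the probe sets, and collection time was not given.

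**Figure D4:**
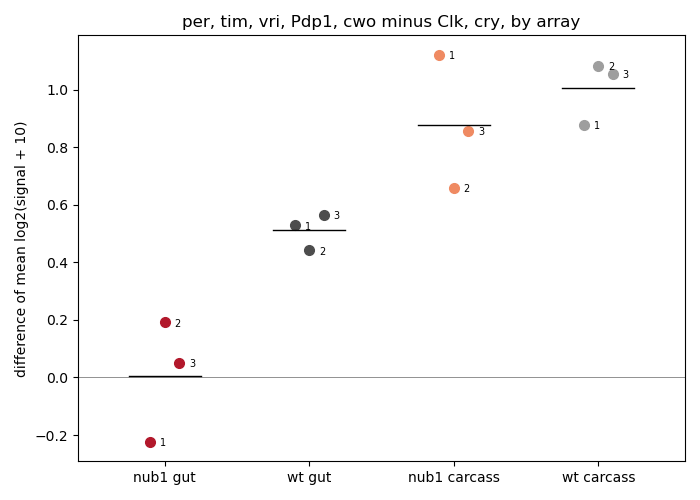
Mean log2(signal + 10) of *per*, *tim*, *vri*, *Pdp1* and *cwo* minus the mean of *Clk* and *cry* on each array (dots, with replicate numbers), and the mean of each group (line). The 3 *nub1* gut arrays, between −0.22 and 0.19, lie below the 3 wt gut arrays, between 0.44 and 0.57, and the carcass groups overlap.

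Other genes of the clock and of DNA repair were described from the platform annotation. Over all probe sets tested, limma called 2.77% higher and 1.94% lower in carcass, and 3.15% higher and 6.13% lower in gut. At those shares such short lists would hold few calls, so counts of 0 or 1 say little about them. Of 18 listed genes that modify the clock, such as kinases, phosphatases and translation and degradation factors, 11 were measured and none was called by limma or by the methods' test in gut or carcass, with 3 at an unadjusted p under 0.05 in gut and 1 in carcass. The 3 in gut also had an adjusted p under 0.05, where 35.1% of all probe sets did: *tyf*, a translation factor for *per* (log2 fold change 0.88), *wdb*, a phosphatase subunit (0.52), and *Atx2* (0.33). Of 7 tested genes of clock output, 3 had an adjusted p under 0.05 in gut and 2 in carcass, where 15.6% of all probe sets did. Of these, *Cyp4d21*, a cytochrome P450 gene, was called in gut, with signals of 92.2, 42.5 and 49.1 in *nub1* flies against 8.93, 11.4 and 9.16 in wt flies (log2 fold change 1.78, SE 0.21, adjusted p = 5.6e-05). In carcass it had 13.3, 16.2 and 19.8 in *nub1* flies and 6.07, 6.43 and 4.63 in wt flies, and was not called on the log2(signal + 10) scale (0.75, adjusted p = 0.032). In both tissues *Cyp4d21* passed the dim limit only through the *nub1* arrays, where it is high. Its wt signals lie near or under that limit, so its values are given as a description. *Ugt35B1*, a glycosyltransferase gene, was at 0.44 in gut (adjusted p = 0.035). The methods' test called 2 clock output genes in gut and 2 in carcass without adjustment, and 0 in gut and 1 in carcass after Benjamini-Hochberg. *Pdfr*, the receptor of the clock neuropeptide PDF, had mean signals of 9.41 in *nub1* gut and 19.7 in wt gut, and of 5.51 in *nub1* carcass and 17.9 in wt carcass. On the log2(signal + 10) scale these dim signals gave −0.64 in gut (adjusted p = 0.041) and −0.83 in carcass (adjusted p = 0.023), which were not called. *Pdfr* passed the dim limit only through the wt arrays, where it is higher, so these values are a description too. Of the DNA repair genes none was called by either test, with 17 tested in gut and 18 in carcass. 4 of them had an adjusted p under 0.05 in gut, a smaller share than the 35.1% over all probe sets, and no others an unadjusted one. These were *mei-9* (0.46), *RPA1* (0.40), *hay* (−0.30) and *p53* (−0.26). In carcass 0 had an unadjusted p under 0.05.

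*phr* and *phr6-4* lie on the chromosome that bears *nub1*, *phr* on arm 2R and *phr6-4* on 2L, as *tim* and *vri* do. Neighbours were taken in the RefSeq gene order (Release 6 assembly), among measured genes named by the platform annotation, without regard to distance. Of the 5 nearest such genes on either side of *phr*, *cathD*, an aspartic protease gene, was also called lower, by −1.57 in carcass and −1.41 in gut. The only such gene between them, *CG30383*, had −0.78 in gut (adjusted p = 0.0068) and was too dim for a test in carcass. Of the other 8, *Dgk* was too dim to test and none was called. Uncalled but with an adjusted p under 0.05 in gut were *CG30377* (0.84), *puml* (−0.49) and *TTLL12* (−0.33), and in carcass *puml* (−0.43). Around *phr6-4*, 5 of the 10 nearest such genes were too dim to test in either tissue. Of the remaining 5, *CG17470* was called lower, by −1.87 in carcass and −1.16 in gut, and *Uhg3*, a host gene of small nucleolar RNAs, by −1.43 in carcass and −1.27 in gut. *phr6-4* and its neighbours in this order thus differed in both directions between the strains. Of the larger chromosome arms, 5.23% of tested probe sets with a named gene on 2L and 5.22% on 2R were called in carcass, against 3.61% on X, 3.90% on 3L and 4.25% on 3R. In gut the shares were 10.1% on 2L, 10.7% on 2R, 7.61% on X, 9.37% on 3L and 9.22% on 3R.

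**Figure D5:**
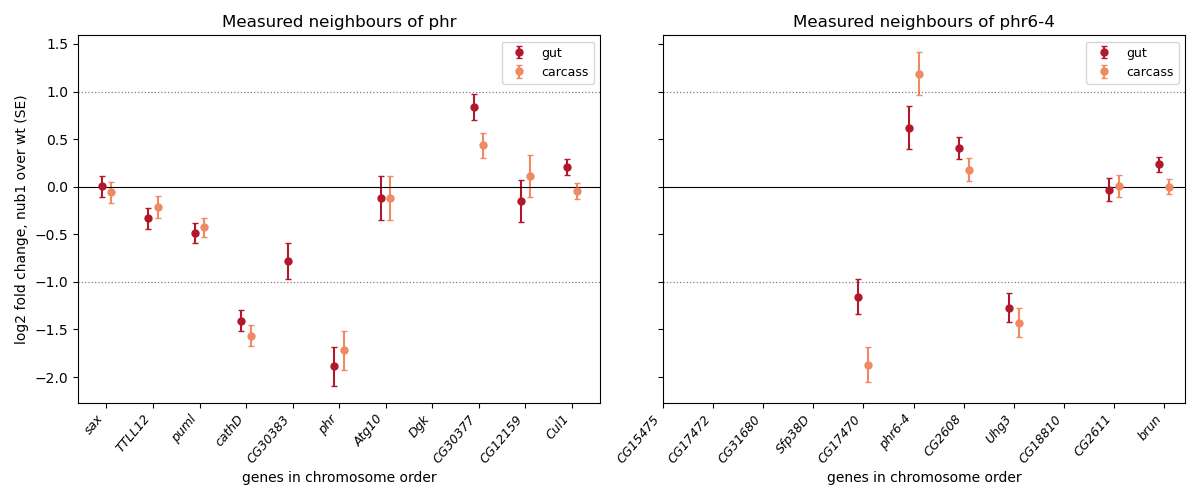
Log2 fold change, *nub1* over wt, with SE, in gut (red) and carcass (orange) for *phr* and *phr6-4* and the 5 nearest measured genes with a platform name on either side, in chromosome order. Genes with no point were too dim to test and dotted lines mark a 2-fold difference. *cathD* lies near *phr*, at −1.57 in carcass and −1.41 in gut, and *CG17470* and *Uhg3* lie below −1 on either side of *phr6-4*, which lies above 0.

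The genes whose signals moved most like those of a member were sought across the 12 arrays, after subtracting the mean of each tissue, among 8441 named genes. For *phr* these were *CG4972*, *anchor* and *tko*, a mitochondrial ribosomal protein gene (Pearson r of 0.98 each), and for *phr6-4* *Dhpr*, a dihydropteridine reductase gene, *CG30466* and *NaPi-III* (r of 0.97, 0.96 and 0.96). All 6 share with the member the direction of its difference between the genotypes, which such a correlation carries. For *Clk* they were *Irk1*, *blw* and *PIG-G* (r from 0.94 to 0.95), for *tim* *Galphas*, *pio* and *comm3* (0.89 each), and for *vri* *CG17475*, *obst-E* and *CG5011* (0.88 to 0.96). The correlations describe these 12 arrays, and the best of so many genes is high by choice.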

How the data were processed

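RNA was measured on 12 arrays, and the authors deposited linear MAS5 intensity values, which per the labels came from Affymetrix Expression Console; its version is not given in the sources used here. After trimming 2% of probe sets at either end, every array averaged 100. Of 18952 probe sets, 183 controls were left out. Names came from the platform table, updated through RefSeq for 13544 probe sets. 402 probe sets with several genes were not used as named genes, and a gene is represented by its brightest probe set. Fits used limma 3.58.1 in R 4.3.3 on log2(signal + 10), with 4 groups in 1 model, an intensity trend and 8 residual degrees of freedom. Probe sets with a signal of at least 10 on all 3 arrays of a compared group were tested. The fits were tested on simulated data. Signals near 10 are close to background, and 3 arrays per group limit the precision. The members and gene lists were chosen with earlier results of these data known. Named are all members, genes of the other lists that passed the test or had an adjusted p under 0.05 (those under 2-fold were chosen after their values were seen), and the 3 most similar genes for 5 members. The neighbours of *phr* and *phr6-4* that passed the test are named too. For *phr*, neighbours with an adjusted p under 0.05 and *Dgk* were added after their values were seen. The methods' test was rerun as a 2-sided unpaired test of linear signals with equal variances, at p under 0.05 and 2-fold. The supplementary tables of the study were used for gene names alone, and the authors' fold change columns in them were not used. Tables were handled with Python 3.11.15 and pandas 2.3.3.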

Additional observations from a re-analysis of the deposited data

How the results depend on the processing

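Of 946 values of single genes under 26 alternatives (the pseudocount, the dim limit, the normalization, the variance trend, the block, the arrays fitted, the methods' test, the other probe sets), 869 kept their direction and side of the threshold, 42 that were called in neither setting changed sign, 20 lost and 14 gained the call. The 2 genes called in carcass, *phr* and *phr6-4*, were called in every fit that left out 1 array, and in gut the count stayed at 1. Since these genes were identified through the study's list of differences on the same arrays, this is not independent evidence. With the methods' test, unadjusted, 2 genes were called in gut (*per* besides *phr*), and without the arrays with ejaculatory duct signal, chosen after seeing the data, also 2 (*phr6-4* besides *phr*); this leaves 1 *nub1* gut array, assumed to vary like the other groups. With this setting 2 genes rather than 6 differed between gut and carcass in *nub1* flies, and with a pseudocount of 32 also 2, *phr* then being at −0.79 in *nub1* and −0.93 in wt flies, under the limit. Leaving out 1 array gave 5 to 7 genes in wt flies and 4 to 7 in *nub1* flies for that comparison, and 0 for the tissue dependence. *Clk* crossed the 2-fold limit in several fits. *cwo* between wt gut and wt carcass reversed to 1.02 by its other probe set. With the replicate block, counts were 2 in carcass, 1 in gut, 0 for the tissue dependence, and 6 in each genotype between tissues. Deviations of arrays with the same number correlated at −0.35 to 0.33. This cannot decide whether the numbers pair samples, since tissues of the same flies need not deviate together. Without the gut arrays with the most eggshell signal, *nub1* replicate 2 and wt replicate 3, also chosen after seeing the data, the counts were 2, 1, 0 and 7 in each genotype. The pseudocount of 32 lowered all calls to 230 in carcass, 549 in gut and 403 for the tissue dependence, against 417, 908 and 669. The methods' test after Benjamini-Hochberg gave 539 in gut. Without the duct arrays there were 1070 for the tissue dependence and 2140 between tissues in *nub1* flies, against 3621. The causes were not tested.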
